A study of Mus musculus with 8 samples.

Results

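The 10 genes described here encode the insulin-like growth factor (IGF) binding proteins Igfbp2 to Igfbp7, the receptors Igf1r and Igf2r, the ligand Igf1 and the adaptor Irs1. They were taken by symbol, with earlier results of these data known, and are 10 of the 35275 genes measured. The cells were myotubes, the multinucleated muscle cells that myogenic progenitor cells (MPCs) form in culture, grown from primary MPCs of C57BL6/J mice in medium with horse serum. Extracellular vesicles (EVs), membrane particles that cells release, were isolated from MPCs by a polymer-based method and added to the myotubes for 12 h or 24 h. The control groups were given EVs from growth medium for the same times, and each of the 4 groups had 2 libraries. Myotubes without added EVs were not analysed here, so higher values with MPC EVs and lower values with the control preparation cannot be told apart. The study asked how MPC EVs change the transcripts of myotubes.

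IGF1 and IGF2 are secreted growth factors that promote the survival, growth and differentiation of muscle cells by activating the receptor tyrosine kinase IGF1R. In the extracellular space they are held by IGF binding proteins, which can block access to the receptor, prolong the life of the ligand or place it near cells. The activated receptor phosphorylates IRS adaptors, which recruit phosphatidylinositol 3-kinase and so activate AKT and mTOR. IGF2R carries IGF2 into lysosomes and has no kinase of its own.

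Levels are in FPKM, which scale a gene's fragments to its length and to the depth of the library, and stand per library (replicate 1, then replicate 2) or as mean ± SD with n = 2 libraries. Whether replicate libraries are separate cultures or mice is not stated in the labels, so p-values measure only the spread between these libraries. Libraries held 16.3 to 20.1 M fragments each (M for mega), and the 10 genes had between 22 fragments (Igf1) and 5534 fragments (Igf2r) in a library. In 16 of 40 pairs of replicate libraries, 1 pair per gene and group, the levels of a gene differed by more than counting error (95% exact binomial interval, which covers counting error only). Excess over counting error was not particular to these genes. Over 12828 to 13070 genes per group, the mean chi-square per gene between replicates was 86.4 in control and 6.61 with MPC EVs at 12 h. At 24 h it was 3.58 and 8.83, where counting error alone gives about 1. The share of all genes beyond the interval was not computed. The 2 control libraries at 12 h agreed least, with a correlation across genes of 0.947 against 0.992 to 0.996 in the other groups, and which of them stands apart cannot be told from 2 libraries. Every myotube marker reached at least 10.5 FPKM in every library, among them Myog, a transcription factor of differentiating muscle, at 1851 to 3290.1 FPKM. All 6 endothelial, 5 adipocyte and 5 Schwann cell markers stayed under 1 FPKM.

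The promoters of the 5 genes on which the results turn are shown because 4 of them changed with MPC EVs and Igfbp5 changed most with time. Each is the 250 bases before the gene's start in RefSeq (GRCm38.p6), written 5′ to 3′ on the gene's own strand. They lie at chr1:72824230-72824479 (Igfbp2, plus strand), chr11:7213924-7214173 (Igfbp3, minus), chr1:72874866-72875115 (Igfbp5, minus), chr5:77408046-77408295 (Igfbp7, minus) and chr1:82291440-82291689 (Irs1, minus). The RefSeq and GENCODE vM21 starts of these 5 genes differ by 0 to 23 bases. Capitals mark matches to a GC box (GGGCGG) or to an NF-kB pattern (GGGA, then any 4 bases, then CC) on either strand, and no capital run belongs to both.
Igfbp2: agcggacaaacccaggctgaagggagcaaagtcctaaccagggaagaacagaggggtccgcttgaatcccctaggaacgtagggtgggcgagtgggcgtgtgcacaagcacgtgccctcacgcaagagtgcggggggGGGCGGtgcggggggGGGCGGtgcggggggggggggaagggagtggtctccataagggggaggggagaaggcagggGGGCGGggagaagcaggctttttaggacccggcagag
Igfbp7: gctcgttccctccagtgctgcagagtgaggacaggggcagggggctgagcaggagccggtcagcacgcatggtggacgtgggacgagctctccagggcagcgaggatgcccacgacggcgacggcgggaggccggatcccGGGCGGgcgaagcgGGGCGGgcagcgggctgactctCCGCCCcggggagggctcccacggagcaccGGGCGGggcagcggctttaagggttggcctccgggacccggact
Igfbp3: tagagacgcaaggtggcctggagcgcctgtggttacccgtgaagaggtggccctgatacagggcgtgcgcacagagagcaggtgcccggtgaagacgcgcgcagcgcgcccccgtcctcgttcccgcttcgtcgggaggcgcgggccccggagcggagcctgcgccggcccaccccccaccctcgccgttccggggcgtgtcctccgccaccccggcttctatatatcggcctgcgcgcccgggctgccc
Irs1: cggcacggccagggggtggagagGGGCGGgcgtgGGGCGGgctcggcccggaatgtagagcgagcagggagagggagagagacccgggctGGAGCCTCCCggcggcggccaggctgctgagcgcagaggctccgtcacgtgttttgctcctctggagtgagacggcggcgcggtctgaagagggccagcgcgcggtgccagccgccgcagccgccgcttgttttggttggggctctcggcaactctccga
Igfbp5: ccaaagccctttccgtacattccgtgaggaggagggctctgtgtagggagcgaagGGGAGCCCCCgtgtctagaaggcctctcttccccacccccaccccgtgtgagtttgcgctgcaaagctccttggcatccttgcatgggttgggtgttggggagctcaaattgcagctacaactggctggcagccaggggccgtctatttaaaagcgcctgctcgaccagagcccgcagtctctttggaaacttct

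Igfbp7, Igfbp2 and Irs1 hold 4, 3 and 2 GC boxes, while Igfbp3 and Igfbp5 hold none, and 32.7% of 32817 RefSeq promoters of this length hold at least 1. Irs1 and Igfbp5 each hold 1 match to the NF-kB pattern, present in 17.6% of promoters. None of the 5 holds the TATA box letters TATAAA (12.4% of promoters) or the E-box bound by MyoD and myogenin (CAGCTG, 13.0%). Nor does any hold an AP-1 site (TGANTCA, 6.75%) or a FOXO site (GTAAACA, 3.16%). Only these letters were searched, so similar stretches such as tatatat in Igfbp3 and tatttaa in Igfbp5 were not counted, and a TATA box of other letters may be present. Their GC content was 58.8% in Igfbp5, 67.2% in Igfbp2, 72.4% in Irs1, 73.2% in Igfbp3 and 74.0% in Igfbp7, against a median of 52.4% over all promoters. The presence of a GC box and the GC content thus did not divide the pair that fell with MPC EVs (Igfbp2 and Igfbp7) from the pair that rose (Igfbp3 and Irs1). The number of GC boxes was 3 and 4 in the pair that fell and 0 and 2 in the pair that rose. With 2 genes in each pair, a link to the promoters was not tested. Of the other genes, the promoters of Igf2r and Igf1r hold 3 and 2 GC boxes, and those of Igfbp4 and Igfbp6 a match to TATAAA each. That match starts at -28 from the RefSeq start in Igfbp4, and at -148 on the reverse strand in Igfbp6. The promoter of Igf1 holds matches to the E-box, AP-1 and NF-kB letters. For Igf1, Igf1r and Igfbp6 the RefSeq and GENCODE starts differ by 2846, 570 and 176 bases. Their matches thus need not lie at the gene starts given below, and the Igf1 stretch lies inside that gene.

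Relative to control EVs, the transcripts of the binding proteins Igfbp7 and Igfbp2 were lower in MPC EV myotubes at both times, and those of the binding protein Igfbp3 and the adaptor Irs1 were higher. On the log2(FPKM + 0.5) scale, Igfbp7 fell 1.998-fold at 12 h and 1.75-fold at 24 h, and Igfbp2 fell 1.59-fold and 1.45-fold. Igfbp3 rose 1.32-fold and 1.76-fold, and Irs1 rose 1.97-fold and 1.84-fold. The receptor Igf1r rose 1.52-fold at 12 h. Differences were tested with limma on log2(FPKM + 0.5) across the 10981 genes that averaged 1 FPKM or more, two-sided, with Benjamini-Hochberg adjustment over all of them and a threshold of 0.05. Igf1, with a mean of 0.533 FPKM, was not among these, so 9 of the 10 genes were tested. At 12 h, 5 of 9 passed, 3 higher and 2 lower, against 18.6% of all tested genes (4.36% higher and 14.3% lower). At 24 h, 4 of 9 passed, 2 higher and 2 lower, against 3.57% (2.61% higher and 0.956% lower). The 4 that passed at 24 h had passed in the same direction at 12 h, which is 80.0% of the 12 h calls and all of the 24 h calls of these genes. For all tested genes the calls in common in the same direction were 269, or 13.2% of the 12 h calls and 68.6% of the 24 h calls. The 2 comparisons share no library but share 1 estimate of spread per gene.

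The levels of a library could not be put on an absolute scale. At 12 h the median log2 difference of all tested genes was -0.12, and scaling the libraries by median ratios moved it to 0.01 and the higher share of all calls from 23.4% to 57.3%. Relative to that median, the log2 differences at 12 h were -0.88 for Igfbp7, -0.56 for Igfbp2, 0.51 for Igfbp3, 0.72 for Igf1r and 1.10 for Irs1. The same 5 genes at 12 h and the same 4 at 24 h passed after median-ratio scaling. At 24 h the median over all tested genes was -0.03. The median over the 9 genes was 0.33 at 12 h and 0.15 at 24 h.

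**Figure D1:**
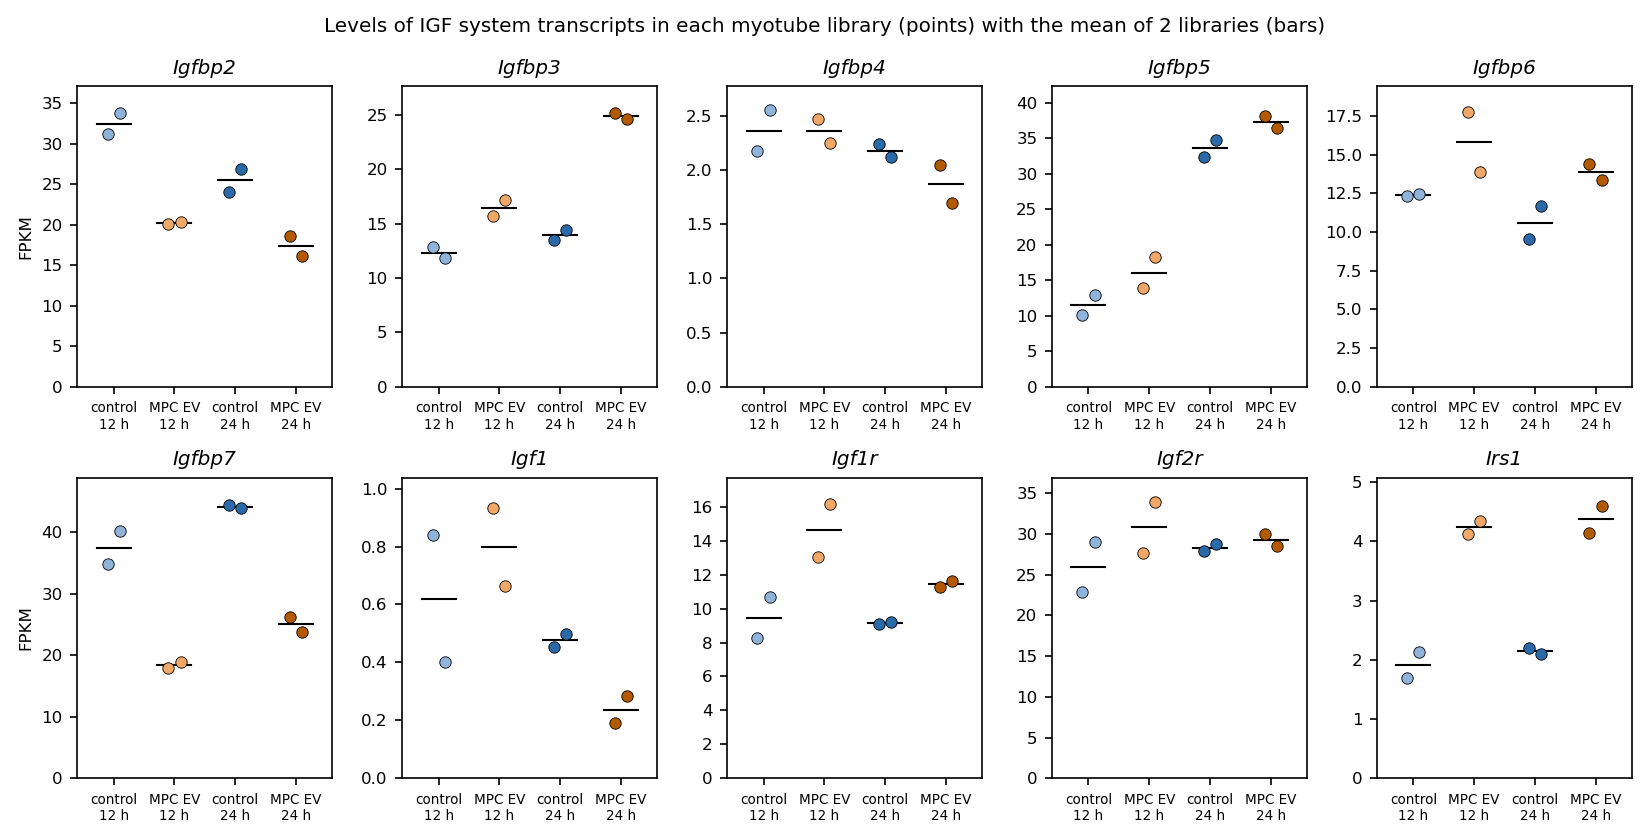
FPKM of each of the 10 genes in each of the 8 libraries, by group, with points for libraries, bars for the mean of 2 libraries and each vertical axis starting at 0. The 4 MPC EV libraries lie below all 4 control libraries for Igfbp2 and Igfbp7 and above all of them for Igfbp3, Irs1 and Igf1r, and Igfbp5 is higher in the 4 libraries at 24 h than in the 4 at 12 h.

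Igfbp7 encodes a secreted protein of vessel and matrix that binds IGFs more weakly than the other binding proteins (ENSMUSG00000036256, chr5:77349240-77408041, minus strand, GRCm38). Its level was 34.8 and 40.1 FPKM in control and 17.9 and 19.0 FPKM with MPC EVs at 12 h, and 44.3 and 43.9 FPKM in control and 26.3 and 23.8 FPKM with MPC EVs at 24 h. Even the highest MPC EV library stayed below the lowest control library. Igfbp7 fell by 1.00 ± 0.09 (SE) on the log2 scale at 12 h (limma adjusted p = 0.00372), from 37.5 ± 3.75 to 18.5 ± 0.725 FPKM. At 24 h it fell by 0.81 ± 0.09 (limma adjusted p = 0.00928), from 44.1 ± 0.339 to 25.0 ± 1.75 FPKM. Between 12 h and 24 h it rose in MPC EV myotubes by 0.43 ± 0.09 (limma adjusted p = 0.0239), while the log2 difference in control was 0.24 ± 0.09 (limma adjusted p = 0.124). With a correction for GC content and length, the control difference was 0.37 and passed (limma adjusted p = 0.0153), and that in MPC EV myotubes was 0.28 (limma adjusted p = 0.0444).

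Igfbp2 encodes a binding protein that holds both IGFs and carries an integrin-binding sequence (ENSMUSG00000039323, chr1:72824503-72852474, plus strand). Its levels were 31.2 and 33.8 FPKM in control and 20.1 and 20.3 FPKM with MPC EVs at 12 h. At 24 h they were 24.1 and 26.9 FPKM in control and 18.6 and 16.2 FPKM with MPC EVs. The groups did not overlap at either time. Igfbp2 fell by 0.67 ± 0.09 (SE) on the log2 scale at 12 h (limma adjusted p = 0.00985) and by 0.54 ± 0.09 at 24 h (limma adjusted p = 0.0381). Control libraries were lower at 24 h than at 12 h, with a log2 difference of -0.35 ± 0.09 that missed the threshold (limma adjusted p = 0.0531). It passed with a minimum mean of 5 FPKM (limma adjusted p = 0.0477), with voom on recovered fragments (limma adjusted p = 0.0488) and without control 12 h replicate 1 (limma adjusted p = 0.0153).

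Collagens that fibroblasts also express were lower with MPC EVs at both times, as Igfbp7 and Igfbp2 were. From 12 h to 24 h in control, Col1a2 went from 12.9 and 14.0 FPKM to 17.1 and 17.7 FPKM, and Col1a1 and Col3a1 were also higher at 24 h. Igfbp7 libraries were likewise higher at 24 h in control, while those of Igfbp2 were lower. The summed level of a list of 9 fibroblast markers was 40.7 to 41.7 FPKM in control and 27.9 to 33.5 FPKM with MPC EVs at 12 h, and 50.7 to 53.0 FPKM against 35.7 to 36.0 FPKM at 24 h. Of the 4 tested markers of that list, 2 passed as lower at 12 h and 1 at 24 h, against 14.3% and 0.956% of all tested genes, and none as higher. Nearly all of the sum came from Col1a1 (3.40 to 9.40 FPKM over the 8 libraries), Col1a2 (7.43 to 17.7 FPKM) and Col3a1 (14.5 to 22.7 FPKM). The other markers of the list were low: Dcn, Lum, Thy1 and Tcf21 stayed at or below 0.340, 0.0263, 0.232 and 0.0810 FPKM, Pdgfra lay between 0.650 and 1.23 FPKM and Postn between 0.358 and 2.18 FPKM. At 12 h Pdgfra was at 0.650 and 0.828 FPKM in control and 0.888 and 0.838 FPKM with MPC EVs. At 24 h it was at 0.865 and 0.777 FPKM in control and 1.23 and 0.872 FPKM with MPC EVs. Not every marker of the list was thus lower at either time. Their part in the falls of Igfbp7 and Igfbp2 was not tested, and in RNA from whole cultures fewer cells of a type and less RNA per cell cannot be told apart. Of 8 pericyte and smooth muscle markers, 4 were tested and 1 passed as lower at each time, against the same shares of all tested genes. Most of their summed level, 1680 to 2007 FPKM in control and 1710 to 1785 FPKM with MPC EVs at 12 h and 889 to 952 FPKM against 768 to 872 FPKM at 24 h, came from Acta2, which was at 672 to 1809 FPKM. The summed macrophage markers lay between 1.11 and 2.82 FPKM in all libraries.

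Igfbp3 encodes the main carrier of IGFs in blood (ENSMUSG00000020427, chr11:7206086-7213923, minus strand). In control its levels were 12.8 and 11.9 FPKM at 12 h and 13.5 and 14.4 FPKM at 24 h. With MPC EVs they were 15.7 and 17.2 FPKM at 12 h and 25.2 and 24.7 FPKM at 24 h. The MPC EV libraries at 24 h were the highest of the 8, and the groups overlapped at neither time. Igfbp3 rose by 0.40 ± 0.08 (SE) on the log2 scale at 12 h (limma adjusted p = 0.0242) and by 0.82 ± 0.08 at 24 h (limma adjusted p = 0.00634). It rose between 12 h and 24 h in MPC EV myotubes by 0.59 ± 0.08 (limma adjusted p = 0.00633), with a difference of 0.17 ± 0.08 in control (limma adjusted p = 0.192). The effect of MPC EVs was 0.42 ± 0.11 larger at 24 h than at 12 h, and this difference of effects had an adjusted p of 0.163 (limma). Without control 12 h replicate 1 it passed (limma adjusted p = 0.0411), and without control 12 h replicate 2 it did not (limma adjusted p = 0.110). With the correction for GC content and length, the rise at 12 h was 0.64 (limma adjusted p = 0.0201) and the difference of effects was 0.15 (limma adjusted p = 0.688).

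Igfbp5 encodes a binding protein that also attaches to extracellular matrix and is known to be induced when myoblasts differentiate (ENSMUSG00000026185, chr1:72857932-72874884, minus strand). At 12 h its levels were 10.1 and 12.9 FPKM in control and 13.9 and 18.2 FPKM with MPC EVs. At 24 h they were 32.4 and 34.8 FPKM in control and 38.2 and 36.5 FPKM with MPC EVs. All 24 h libraries were thus above all 12 h libraries. Igfbp5 rose with time by 1.51 ± 0.16 (SE) on the log2 scale in control (limma adjusted p = 0.00212), a 2.85-fold rise, and by 1.20 ± 0.16 in MPC EV myotubes (limma adjusted p = 0.00563). In control it was the 1 of 9 genes that passed over time, against 17.8% of all tested genes (7.54% higher and 10.3% lower). The control rise passed in all 8 fits that left out 1 library, and the rise in MPC EV myotubes missed the threshold without MPC EV 24 h replicate 1 (limma adjusted p = 0.0515). The MPC EV libraries lay above control at each time without overlap, by 0.46 ± 0.16 at 12 h (limma adjusted p = 0.0843) and 0.15 ± 0.16 at 24 h (limma adjusted p = 0.827).

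Igfbp2 and Igfbp5 are neighbours on chromosome 1. Their 3′ ends face each other with 5457 bases between the genes in GENCODE vM21, and libraries were not strand-specific. Over time in control, Igfbp5 rose and Igfbp2 had a negative log2 difference that missed the threshold. With MPC EVs at both times Igfbp2 fell and Igfbp5 did not pass. The ratio of Igfbp5 to Igfbp2 FPKM was 0.325 and 0.382 in control and 0.694 and 0.899 with MPC EVs at 12 h. At 24 h it was 1.35 and 1.30 in control and 2.05 and 2.26 with MPC EVs, so the 4 groups were ordered without overlap. Igfbp3 lies on chromosome 11, 3539 bases from the end of Igfbp1, which was listed at 0 in all 8 libraries.

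Igfbp6 encodes a binding protein with a strong preference for IGF2 (ENSMUSG00000023046, chr15:102144362-102149511, plus strand). Its levels were 12.3 and 12.5 FPKM in control and 17.8 and 13.9 FPKM with MPC EVs at 12 h, and 9.54 and 11.7 FPKM against 14.4 and 13.3 FPKM at 24 h. MPC EV libraries were above control at each time, yet the 2 MPC EV libraries at 12 h differed by more than counting error. The log2 differences were 0.33 ± 0.14 (SE) at 12 h (limma adjusted p = 0.143) and 0.38 ± 0.14 at 24 h (limma adjusted p = 0.291).

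Igfbp4 encodes an inhibitory binding protein that the protease PAPP-A cleaves (ENSMUSG00000017493, chr11:99041244-99054392, plus strand). It was the lowest of the binding proteins, at 1.70 to 2.55 FPKM over the 8 libraries. At 12 h the groups overlapped and the log2 difference was 0.00 ± 0.13 (SE; limma adjusted p = 0.996). At 24 h the MPC EV libraries, at 2.05 and 1.70 FPKM, were below the control libraries, at 2.24 and 2.12 FPKM, with a log2 difference of -0.18 ± 0.13 (limma adjusted p = 0.710). Igfbp4 passed in no comparison. Pappa, the gene of that protease, was at 0.0167 to 0.180 FPKM.

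Because FPKM divide by length, the 6 binding proteins can be set against each other within a library, and their shares do not depend on how libraries are scaled. Their summed level was 103 and 114 FPKM in control and 87.8 and 90.8 FPKM with MPC EVs at 12 h, and 126 and 134 FPKM against 125 and 116 FPKM at 24 h. Igfbp7 made up 33.7% and 35.3% of the sum in control at 12 h and 20.4% and 20.9% with MPC EVs. At 24 h its shares were 35.2% and 32.8% in control and 21.1% and 20.5% with MPC EVs. The treatments were apart in the Igfbp7 share, and within each treatment the 2 times overlapped. The share of Igfbp5 was 9.80% and 11.4% in control and 15.8% and 20.1% with MPC EVs at 12 h, and 25.7% and 26.0% against 30.7% and 31.4% at 24 h. That of Igfbp3 was 10.4% to 12.4% in the 4 control libraries and 17.9% to 21.2% in the 4 MPC EV libraries. The share of Igfbp2 was 29.7% to 30.1% in control at 12 h and 13.9% to 14.9% with MPC EVs at 24 h, with the other groups between. These shares are descriptions without a test.

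**Figure D2:**
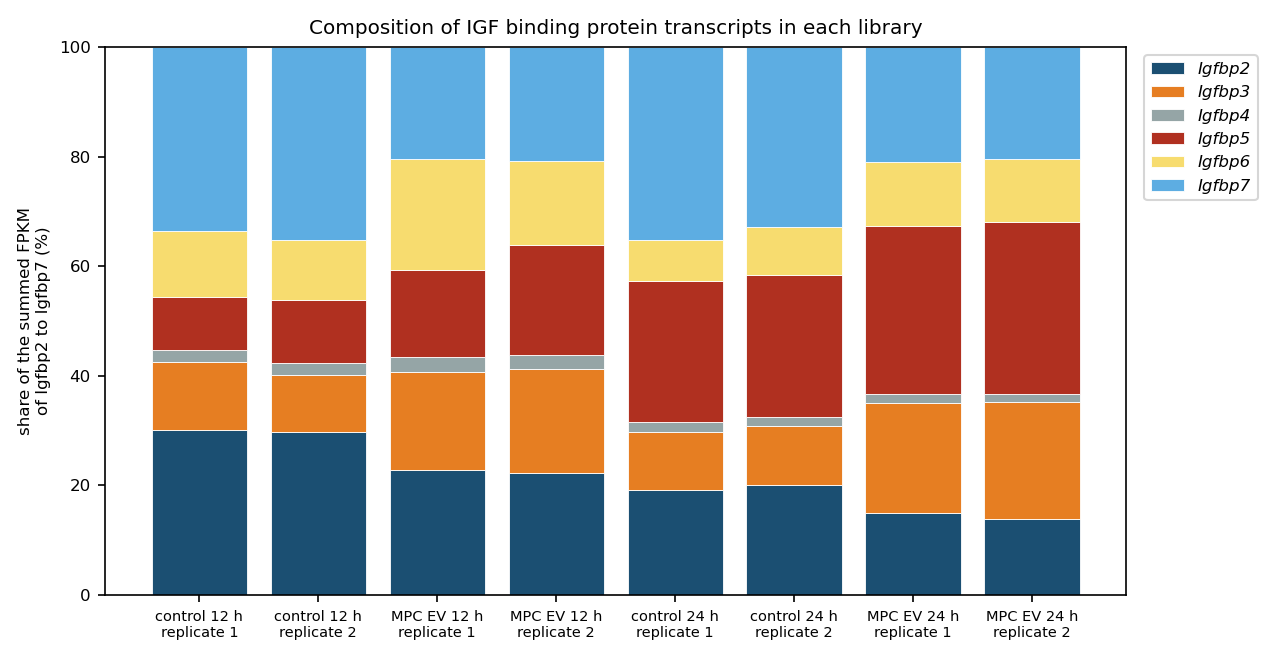
Share of each binding protein (percent) in the summed FPKM of Igfbp2 to Igfbp7, 1 stacked bar per library. The Igfbp7 segment is 32.8% to 35.3% in control libraries and 20.4% to 21.1% in MPC EV libraries, and the Igfbp5 segment is wider at 24 h than at 12 h.

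Igf1, the ligand (ENSMUSG00000020053, chr10:87858265-87937042, plus strand), had the lowest level of the 10 genes. Its levels were 0.840 and 0.400 FPKM in control and 0.933 and 0.665 FPKM with MPC EVs at 12 h, from 56 to 114 fragments. At 24 h they were 0.453 and 0.499 FPKM in control and 0.191 and 0.284 FPKM with MPC EVs, from 22 to 71 fragments. The groups overlapped at 12 h, and at 24 h the MPC EV libraries were the lower. In a fit of all genes without a filter the log2 differences were 0.23 ± 0.22 (SE) at 12 h (limma adjusted p = 0.566) and -0.41 ± 0.22 at 24 h (limma adjusted p = 0.658), on a scale that understates changes of low genes. Igf2, the other ligand, was far higher, at 941 to 1256 FPKM, and its log2 differences with MPC EVs were 0.12 ± 0.09 at both 12 h (limma adjusted p = 0.355) and 24 h (limma adjusted p = 0.732). With the correction for GC content and length, the 12 h difference of Igf2 was 0.27 and passed (limma adjusted p = 0.0126). The level of Igf2 was 8.58 to 9.96 times the summed binding proteins in control libraries and 10.1 to 12.7 times in MPC EV libraries.

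Igf1r encodes the signalling receptor (ENSMUSG00000005533, chr7:67952827-68233668, plus strand). At 12 h its levels were 8.24 and 10.7 FPKM in control and 13.1 and 16.2 FPKM with MPC EVs. At 24 h they were 9.09 and 9.20 FPKM in control and 11.3 and 11.6 FPKM with MPC EVs. MPC EV libraries were above control at both times. Igf1r rose by 0.60 ± 0.15 (SE) on the log2 scale at 12 h (limma adjusted p = 0.0382), and its log2 difference at 24 h was 0.31 ± 0.15 (limma adjusted p = 0.432). The 12 h call was lost with a correction for GC content and length, which brought the log2 difference to 0.33 (limma adjusted p = 0.237), and with no filter on low values (limma adjusted p = 0.0671). The authors' FPKM of Igf1r imply a gene length of 4489 bases where the longest GENCODE vM21 transcript has 11409, so its level stands 2.54 times higher against the other genes than that transcript would give. For 8 of the 10 genes the implied length equals that of the longest transcript, and for Igfbp7 it is 1213 against 1200 bases.

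Igf2r encodes the receptor that clears IGF2 (ENSMUSG00000023830, chr17:12682406-12769664, minus strand). It ranged from 22.9 to 34.0 FPKM over the 8 libraries, and MPC EV and control libraries overlapped at both times. The log2 differences with MPC EVs were 0.25 ± 0.14 (SE) at 12 h (limma adjusted p = 0.229) and 0.04 ± 0.14 at 24 h (limma adjusted p = 0.959). Igf2r had the most fragments of the 10 genes, at least 3810 per library, yet its replicate libraries differed by more than counting error in 3 of 4 groups. Without control 12 h replicate 2 its 12 h difference was 0.41 and passed (limma adjusted p = 0.0489).

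Irs1, the adaptor downstream of the IGF1 and insulin receptors (ENSMUSG00000055980, chr1:82233101-82291416, minus strand), rose with MPC EVs at both times. Its levels were 1.69 and 2.13 FPKM in control and 4.12 and 4.35 FPKM with MPC EVs at 12 h. At 24 h they were 2.20 and 2.09 FPKM in control and 4.14 and 4.60 FPKM with MPC EVs. The 4 MPC EV libraries were all above the 4 control libraries, and the levels at the 2 times were close. Irs1 rose by 0.98 ± 0.13 (SE) on the log2 scale at 12 h (limma adjusted p = 0.00799), a 1.97-fold rise, and by 0.88 ± 0.13 at 24 h (limma adjusted p = 0.0221). At 24 h its rise and that of Igfbp3 lay within their SE of each other. The related adaptor Irs2, at 1.84 to 4.03 FPKM, had log2 differences of 0.00 ± 0.19 at 12 h (limma adjusted p = 0.992) and 0.01 ± 0.19 at 24 h (limma adjusted p = 0.990). Its difference over time was 0.65 ± 0.19 in control (limma adjusted p = 0.0584) and 0.66 ± 0.19 in MPC EV myotubes (limma adjusted p = 0.0547).

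**Figure D3:**
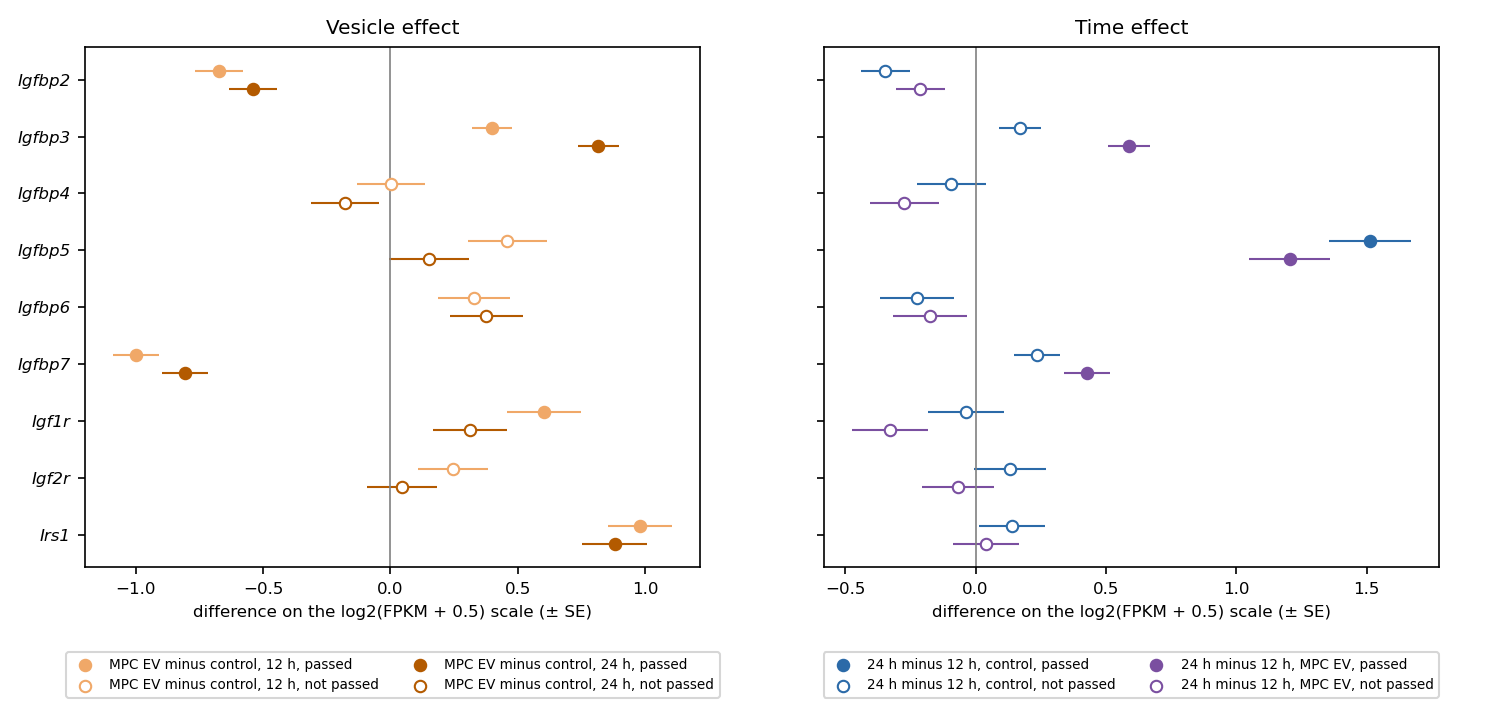
Differences on the log2(FPKM + 0.5) scale with their SE for the 9 tested genes, MPC EV minus control at 12 h and 24 h on the left and 24 h minus 12 h in each treatment on the right, with filled points for a limma adjusted p under 0.05. With MPC EVs, Irs1 and Igfbp3 lie to the right of 0 and Igfbp2 and Igfbp7 to the left at both times, and over time Igfbp5 stands farthest right in both treatments.

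The calls with MPC EVs rested on few libraries and on the spread shared by the 4 groups. In a fit of the 4 libraries at 12 h alone none of the 9 genes passed, with limma adjusted p of 0.0797 for Igfbp7, 0.0931 for Igfbp2, 0.108 for Irs1, 0.169 for Igfbp3 and 0.184 for Igf1r, while at 24 h the same 4 passed in the 4 libraries of that time alone. With 1 library left out of the 8, only Igfbp7 passed at 12 h without MPC EV 12 h replicate 1 (limma adjusted p = 0.0415) or without MPC EV 12 h replicate 2 (0.0304). In those fits the limma adjusted p was 0.0566 and 0.0596 for Irs1, 0.0697 and 0.0652 for Igfbp2, 0.0742 and 0.117 for Igfbp3 and 0.0792 and 0.162 for Igf1r. Without any 1 of the 24 h libraries, Igf1r (limma adjusted p of 0.0773 to 0.0822) and Igfbp3 (0.0588 to 0.0595) missed the threshold at 12 h. Without control 12 h replicate 2, Igf2r (limma adjusted p = 0.0489) and Igfbp5 (0.0256) were added. At 24 h, no gene of the 9 passed without any 1 of the 4 libraries of that time, with limma adjusted p of 0.0622 to 0.0886 for Igfbp3, 0.0725 to 0.108 for Igfbp7, 0.128 to 0.275 for Igfbp2 and 0.141 to 0.186 for Irs1. Igfbp2 (limma adjusted p of 0.0931 and 0.0930) and Irs1 (0.0599 and 0.0598) also missed it at 24 h without MPC EV 12 h replicate 1 or 2, and with no filter on low values (0.0677 and 0.0570). The log2 differences themselves stayed between -1.10 and -0.74 for Igfbp7, -0.73 and -0.44 for Igfbp2, 0.34 and 0.87 for Igfbp3, and 0.81 and 1.11 for Irs1 in these fits over both times.

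None of the 9 genes passed the test of the difference between the effects at 24 h and 12 h, against 0.0% of all tested genes. By limma without adjustment, 1 of 9 genes and 2014 of 10981 had a p under 0.05, and voom on recovered fragments likewise called none after adjustment. In the fits without 1 library, the difference of effects of Igfbp3 lay between 0.355 and 0.4805 on the log2 scale. Each such fit leaves 1 library in 1 group, which then adds nothing to the estimate of spread. The passing of Igf1r at 12 h and not at 24 h is therefore no shown difference between the times, its difference of effects being -0.29 ± 0.21 (SE; limma adjusted p = 0.439). Over time in MPC EV myotubes, 3 of 9 genes rose (Igfbp5, Igfbp3 and Igfbp7) and none fell, against 18.3% of all tested genes (12.9% higher and 5.4% lower). After median-ratio scaling the higher share of all calls in that comparison went from 70.5% to 49.3%. Relative to the median of all tested genes, which was 0.10, the log2 differences of Igfbp5, Igfbp3 and Igfbp7 were 1.11, 0.49 and 0.33. Without MPC EV 24 h replicate 1 none of the 3 passed, and without MPC EV 12 h replicate 1 or MPC EV 24 h replicate 2 only Igfbp5 did. Igfbp7 also missed the threshold without MPC EV 12 h replicate 2 (limma adjusted p = 0.0866) and without control 24 h replicate 1 (0.0623) or 2 (0.0620), and Igfbp3 with the correction for GC content and length (0.0568).

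Groups were often apart without passing. At 12 h, 7 of 9 genes had both MPC EV libraries above or both below both control libraries, against 62.1% of all tested genes, and at 24 h 8 of 9 against 54.0%. Over time 5 of 9 were apart in control (58.8% of all tested genes) and 6 of 9 in MPC EV myotubes (70.7%).

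The order of levels differed between groups. In control at 12 h, Igfbp7 was above Igfbp2 and Igfbp2 above Igf2r in both libraries, followed by Igfbp6, Igfbp3, Igfbp5 and Igf1r, neighbours that did not differ beyond their spread. With MPC EVs at 12 h, Igf2r came first, then Igfbp2 and Igfbp7, with Igfbp3, Igfbp5, Igfbp6 and Igf1r again unseparated. In control at 24 h the order was Igfbp7, Igfbp5, Igf2r, Igfbp2, Igfbp3, Igfbp6 and Igf1r, each above the next in both libraries. With MPC EVs at 24 h, Igfbp5 came first, followed by Igf2r, and Igfbp7 (25.0 ± 1.75 FPKM) and Igfbp3 (24.9 ± 0.364 FPKM) did not differ beyond their spread. Igfbp4, Irs1 and Igf1 were the 3 lowest in every group. Irs1 was below Igfbp4 in control at 12 h and above it with MPC EVs at both times. The place of Igf1r in these orders rests on the gene length of 4489 bases implied for it. Its longest transcript would give a level 2.54 times lower.

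Of 51 other genes of the IGF pathway, 39 were tested. With MPC EVs, 5 of 39 passed at 12 h, 2 higher and 3 lower, against 18.6% of all tested genes, and 1 passed at 24 h, as higher, against 3.57%. The split at 12 h turned with the scaling: median-ratio scaling gave 8 higher and 0 lower, and the correction for GC content and length gave 9 higher and 1 lower. Their median log2 difference was 0.19 at 12 h, where that of all tested genes was -0.12, and 0.01 at 24 h. None passed the difference between the times. Deptor, an inhibitor of the mTOR kinase, was at 18.0 and 14.0 FPKM in control and 29.4 and 30.2 FPKM with MPC EVs at 12 h, and at 8.84 and 9.01 FPKM against 13.8 and 13.8 FPKM at 24 h. It rose at 12 h by 0.89 ± 0.12 (SE) on the log2 scale (limma adjusted p = 0.00823) and at 24 h by 0.60 ± 0.12 (limma adjusted p = 0.0496). The rise at 12 h was 0.47 with the correction for GC content and length (limma adjusted p = 0.0493). The 24 h call of Deptor held in 5 of the 9 other settings and in 2 of the 8 fits without 1 library, and the pathway had no call at 24 h in 4 of those settings.

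Insr, the insulin receptor, which forms hybrids with IGF1R, rose at 12 h by 0.48 ± 0.09 (SE) on the log2 scale (limma adjusted p = 0.0240), from 6.35 and 6.47 FPKM in control to 8.41 and 9.90 FPKM. With the correction for GC content and length this difference was 0.16 and did not pass (limma adjusted p = 0.480). At 24 h it was 11.4 and 12.1 FPKM in control and 14.2 and 13.7 FPKM with MPC EVs, a log2 difference of 0.24 ± 0.09 (limma adjusted p = 0.321). The ratio of Igf1r to Insr was 1.30 to 1.65 in the 4 libraries at 12 h and 0.762 to 0.851 in the 4 at 24 h, with the treatments overlapping at both times. It rests on the gene length of 4489 bases implied for Igf1r. Which of the 2 genes stands higher thus depends on the gene model, while the order of the libraries does not. The 3 genes that fell at 12 h were Akt1s1, a subunit that restrains mTOR complex 1, by 0.31 ± 0.05 (limma adjusted p = 0.0188), Grb2, an adaptor that links receptors to RAS, by 0.29 ± 0.07 (0.0331), and Eif4ebp1, a repressor of translation, by 0.34 ± 0.09 (0.0433). None of these 3 falls passed after median-ratio scaling, with log2 differences of -0.17 for Akt1s1 (limma adjusted p = 0.0723), -0.16 for Grb2 (0.154) and -0.20 for Eif4ebp1 (0.151). Nor did they with the correction for GC content and length, with -0.10 (limma adjusted p = 0.187), -0.07 (0.429) and -0.15 (0.182). Eif4ebp1 and Grb2 kept their calls in 1 each of the 8 fits without 1 library, and Akt1s1 and Insr in 2 each. Without control 12 h replicate 2, Igf2 passed at 12 h with a log2 difference of 0.25 (limma adjusted p = 0.0407).

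Over time, 10 of the 39 genes rose and 4 fell in control, against 17.8% of all tested genes (7.54% higher and 10.3% lower). In MPC EV myotubes 7 rose and 3 fell, against 18.3% (12.9% higher and 5.4% lower), a split that became 4 and 5 with median-ratio scaling and 6 and 7 with the correction for GC content and length. Htra1, a secreted protease that cleaves Igfbp5 among other proteins, was at 8.29 and 9.60 FPKM in control at 12 h and 17.0 and 15.8 FPKM at 24 h. It rose by 0.84 ± 0.10 (SE) on the log2 scale in control (limma adjusted p = 0.00288) and by 1.26 ± 0.10 in MPC EV myotubes (limma adjusted p = 0.00126), the direction of Igfbp5. Insr rose by 0.82 ± 0.09 in control (limma adjusted p = 0.00295) and 0.58 ± 0.09 in MPC EV myotubes (limma adjusted p = 0.0110), and Deptor fell by 0.80 ± 0.12 (0.00682) and 1.08 ± 0.12 (0.00305). In control, Pdpk1, the kinase that activates AKT, rose by 0.53 ± 0.08 (0.00887), while Pik3r2, a regulatory subunit of phosphatidylinositol 3-kinase, fell by 0.64 ± 0.10 (0.00844) and Inppl1, a lipid phosphatase, fell by 0.60 ± 0.10 (0.00971). In MPC EV myotubes, Eif4ebp1 rose by 0.51 ± 0.09 (0.0121), Foxo3, a transcription factor that AKT restrains, by 0.57 ± 0.10 (0.0138) and Rheb, the GTPase that activates mTOR complex 1, by 0.28 ± 0.06 (0.0257). Rheb did not pass after median-ratio scaling (log2 difference of 0.17, limma adjusted p = 0.123) or with the correction for GC content and length (0.103), and Pdpk1 did not with that correction (log2 difference of 0.28, limma adjusted p = 0.323).

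**Figure D4:**
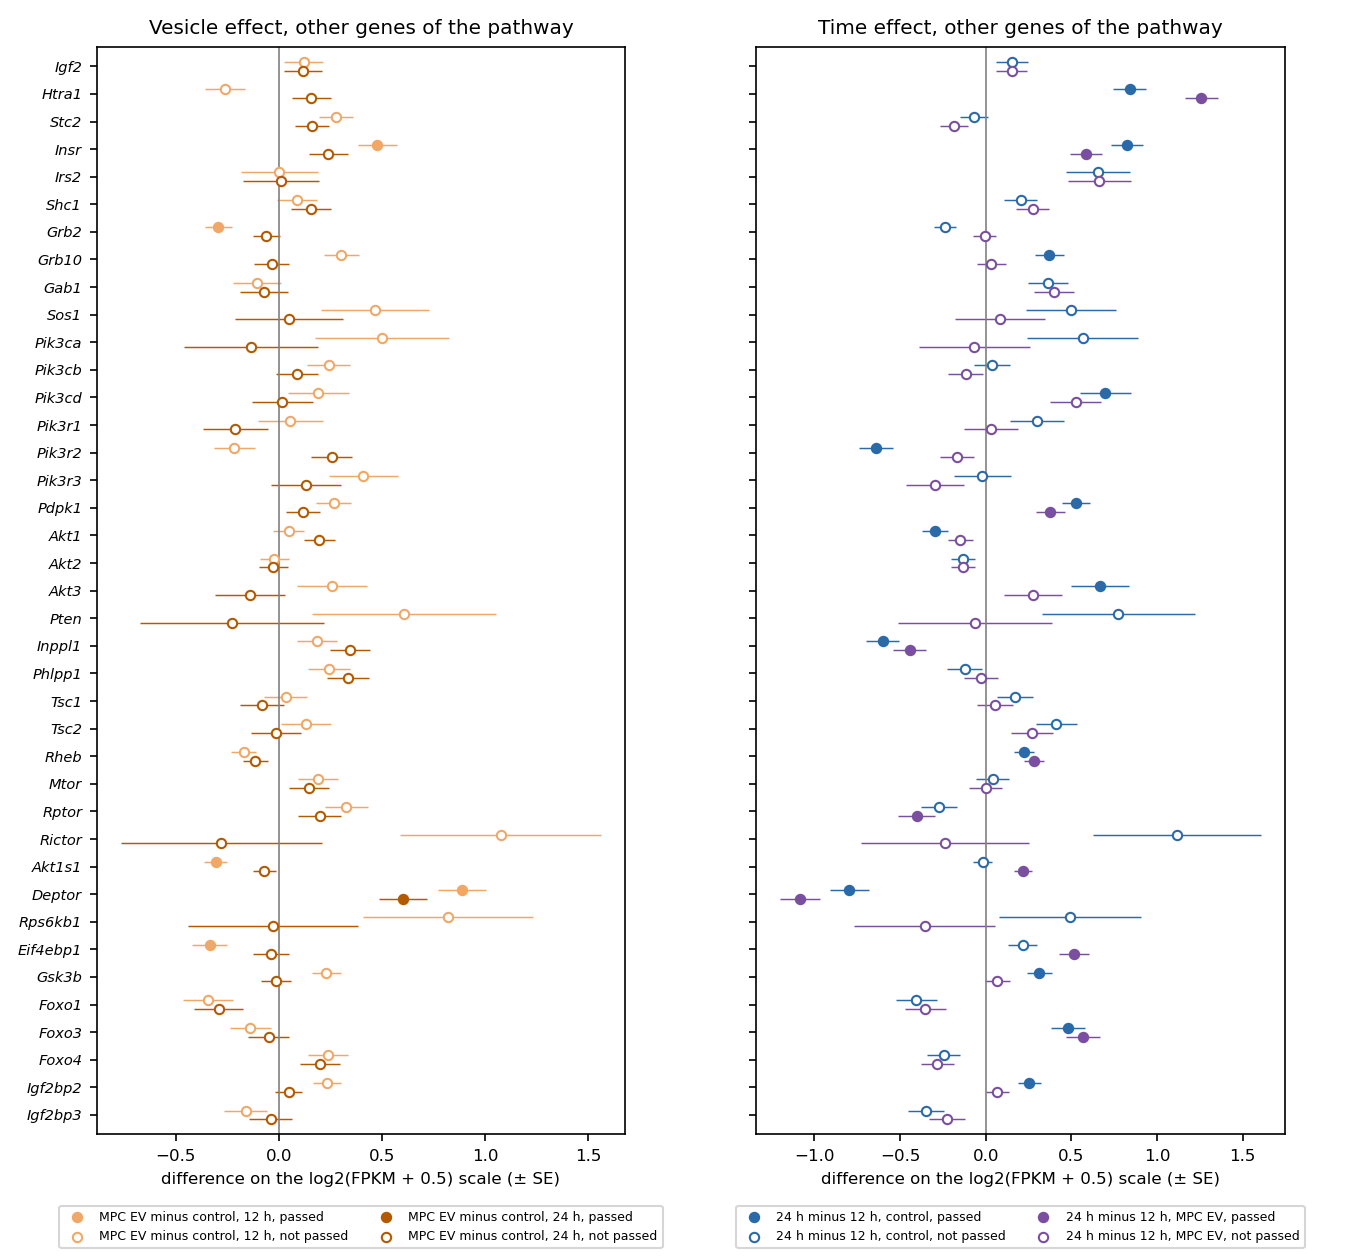
Differences on the log2(FPKM + 0.5) scale with their SE for the 39 tested other genes of the IGF pathway, MPC EV minus control on the left and 24 h minus 12 h on the right, with filled points for a limma adjusted p under 0.05. Filled points on the left are 5 at 12 h and 1 at 24 h, and on the right 14 in control and 10 in MPC EV myotubes, with Htra1 and Deptor farthest to either side among them.

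Markers of muscle moved between the groups as well. The summed level of 9 myotube markers was 12720 to 14590 FPKM in control and 14270 to 14740 FPKM with MPC EVs at 12 h, and 9254 to 9574 FPKM against 11680 to 12790 FPKM at 24 h. Of these, 2 passed as higher and 1 as lower with MPC EVs at 12 h, against 4.36% and 14.3% of all tested genes. At 24 h they were 3 and 1, against 2.61% and 0.956%. Myh3, embryonic myosin heavy chain, was at 162 to 463 FPKM in control libraries and 589 to 1234 FPKM in MPC EV libraries, like Irs1 and Igfbp3 higher with MPC EVs at each time. Mymx, a peptide needed for myoblast fusion, was lower at each time, like Igfbp7 and Igfbp2, at 195 and 198 FPKM in control and 87.7 and 86.4 FPKM with MPC EVs at 12 h and at 78.0 and 73.4 FPKM against 32.0 and 37.0 FPKM at 24 h. The fusion gene Mymk ranged from 537 to 796 FPKM, with the treatments overlapping at both times. Over time, 7 of the 9 fell in control, against 10.3% of all tested genes, and 4 of the 9 fell in MPC EV myotubes, against 5.4%. Igfbp5 rose in both. The summed level of 7 progenitor markers was 107 to 109 FPKM in control and 104 to 119 FPKM with MPC EVs at 12 h, and 77.1 to 84.5 FPKM against 105 to 111 FPKM at 24 h. Of the 6 tested, 2 passed as lower at 12 h (14.3% of all tested genes) and 2 as higher at 24 h (2.61%). Sdc4 was the largest part of the sum in every library. Its 24 h range was 54.8 to 57.8 FPKM in MPC EV libraries against 29.6 to 34.7 FPKM in control libraries. Pax7, Cd34 and Vcam1 were also higher in the MPC EV libraries at 24 h. Myf5 (8.19 to 9.09 against 14.6 to 15.1 FPKM) and Hey1 (2.95 to 3.26 against 4.86 to 5.22 FPKM) were lower then. The progenitor markers thus did not move together. The part of these markers in the results was not tested.

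The genes whose pattern was most like each member's were listed by Pearson correlation of log2(FPKM + 0.5) over the 8 libraries, among 9264 genes that averaged 2 FPKM or more. These values describe 8 libraries in 4 groups that share their treatments and times, and carry no p. Closest to Irs1 were Dusp6 (0.986), Ntn4 (0.984) and Limch1 (0.983). Dusp6, a phosphatase of ERK kinases, was at 5.40 to 6.45 FPKM in the 4 control libraries and 15.65 to 16.8 FPKM in the 4 MPC EV libraries. Closest to Igfbp3 were Klhl41 (0.977), Nr4a1 (0.974) and Thbd (0.972). Thbd, thrombomodulin, was at 3.93 to 5.12 FPKM in control and reached 22.15 and 18.8 FPKM with MPC EVs at 24 h.

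Closest to Igfbp7 were Nipsnap3b (0.992), Acsl5 (0.987) and H2-D1 (0.986), of which H2-D1, a class I histocompatibility gene, ranged from 15.5 to 37.6 FPKM. Closest to Igfbp2 were Plekha2 (0.985), Bbs2 (0.971) and Gatb (0.968), and to Igfbp5 Tenm4 (0.990), Taok3 (0.989) and Ccdc136 (0.9885). Tenm4, a teneurin, was at 1.51 to 3.08 FPKM at 12 h and 11.4 to 12.55 FPKM at 24 h. Closest to Igf1r were Ago2 (0.9865), Ank3 (0.981) and Dusp3 (0.9795), and to Igf2r Hectd4 (0.975), Glg1 (0.969) and Wdfy3 (0.947). For Igfbp6 they were Apbb1 (0.964), Rilpl1 (0.961) and Sh3bgr (0.944), and for Igfbp4 Tstd3 (0.916), Shf (0.912) and Ift122 (0.898). Without control 12 h replicate 2 the 27 correlations lay between 0.862 and 0.999, but only 11 of the 27 genes remained among the first 3 of their member. H2-D1 went to rank 12 and Acsl5 to 9 for Igfbp7, Tenm4 to 11 and Ccdc136 to 10 for Igfbp5, and Nr4a1 to 8 for Igfbp3.

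Among the 9 tested genes themselves, Irs1 and Igfbp2 had the most negative correlation over the 8 libraries (Pearson r of -0.914), followed by Igfbp3 with Igfbp2 (-0.888) and Irs1 with Igfbp7 (-0.870). The highest positive correlations were those of Irs1 with Igf1r (0.834) and with Igfbp3 (0.815). Igfbp5 and Igfbp7, the 2 that were highest in control at 24 h, had an r of 0.134. These values again rest on 4 groups of 2 libraries and carry no p.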

How the data were processed

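RNA of 8 libraries was sequenced as paired ends from libraries that were not strand-specific, per the labels' protocols. The authors deposited FPKM values for 35275 genes in 1 table. The submitters' processing notes name the mm10 build and the tools HISAT2 and DESeq2 (version 2) without saying what each did. The counter, annotation and filters behind the table are not given here, and each column matched 1 library. An FPKM depends on the total of its library, so abundant transcripts can shift the rest.

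Steps between low FPKM values gave whole fragments for all 35275 genes (tolerance 0.0001). They were used for depth, counting error and an alternative test (voom, added after the data were seen, which called 2000 genes at 12 h and 362 at 24 h). IDs were matched to GENCODE vM21 symbols and GRCm38 coordinates (34490 of 35275). Promoters came from RefSeq (GRCm38.p6), which held all 10 genes.

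Tests used limma 3.58.1 (lmFit, eBayes with trend; R 4.3.3) on log2(FPKM + 0.5) of the genes that averaged 1 FPKM or more, as 4 groups with 4 residual degrees of freedom, 5 comparisons and Benjamini-Hochberg adjustment, since all groups share the spread. The script was tested on simulated data. Tables and figures were made with matplotlib 3.10.9, pandas 2.3.3 and numpy 2.4.6 under Python 3.11.15. The members and lists were chosen with earlier results of these data known. Named are all 10 genes, of the pathway list up to 6 genes with the smallest adjusted p among those that passed per comparison plus Igf2, Insr, Irs2 and Pappa, the 3 genes most correlated with each tested gene, and markers. Alternatives were other pseudocounts and filters, median-ratio scaling, a replicate block, only the libraries compared, a GC and length correction (99.7% of tested genes had both values) and each library left out.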

Additional observations from a re-analysis of the deposited data

How the results depend on the processing

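The limits are 2 libraries per group, 4 residual degrees of freedom, and an unknown origin of the replicates. A fit with 1 library left out has 1 library in that group, which then adds nothing to the estimate of spread. Its number of calls thus depends on which library is left. Counts of tested members are out of 9. At 12 h with MPC EVs, the 5 calls among them became 0 in the fit of only the 4 libraries compared and 1 to 7 with 1 library left out. The 2045 calls among all tested genes became 1284 with median-ratio scaling, 1284 with the GC and length correction, 1114 with the replicate block, 11 with only the 4 libraries and 212 to 5671 with 1 library left out. At 24 h, the 4 calls became 2 with no filter and 0 to 4 with 1 library left out, and the 392 calls over all genes became 225 with no filter, 183 with the block, 763 with only the 4 libraries and 27 to 958 with 1 library left out. For the difference of the effects, leaving out 1 library gave 0 to 1 members and 0 to 3668 genes, the highest without control 12 h replicate 1. Over time in control, the 1 call became 2 with a minimum mean of 5 FPKM, with the GC and length correction and with voom, and 1 to 2 with 1 library left out. The 1959 calls over all genes became 480 with only the 4 libraries and 525 to 4519 with 1 left out. Over time in MPC EV myotubes, the 3 calls became 0 to 4, and the 2013 calls over all genes became 3373 with only the 4 libraries and 446 to 4176 with 1 left out. The cause was not tested, except that the fit of 4 libraries has fewer samples and the fit with no filter tests more genes.

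Same-numbered libraries of different groups did not deviate together (correlations of -0.613 to 0.241), so the numbers are not taken to pair the samples. With the replicate block 5 members passed at 12 h and 3 at 24 h, where Igfbp2 had a limma adjusted p of 0.0924. The block changed no other call of a member. Of the pathway genes named, it took the calls of Grb2 (0.0616) and Eif4ebp1 (0.0806) at 12 h, Deptor at 24 h (0.0985) and Rheb over time in MPC EV myotubes (0.0525).

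Of the pathway list, the 5 calls at 12 h (2 higher, 3 lower) became 8 with median-ratio scaling (8 higher, 0 lower), 10 with the GC and length correction (9 higher, 1 lower), 3 with the block and 0 with only the 4 libraries, and 0 to 16 with 1 library left out. Its 1 call at 24 h became 2 with only the 4 libraries or with the GC and length correction. Its 14 calls over time in control became 9 with no filter or with the block and 3 with only the 4 libraries. With 1 library left out, the pathway list had 0 to 2 calls at 24 h, 0 to 14 for the difference of the effects, 2 to 24 over time in control and 2 to 20 over time in MPC EV myotubes.

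None of the log2 differences that changed sign had passed as first fitted. With MPC EVs at 12 h, Igfbp4 went to -0.0024 with voom and ranged from -0.0943 to 0.0962 with 1 library left out, Igf2 from -0.0131 to 0.254 and Irs2 from -0.223 to 0.228. At 24 h, Irs2 went to -0.0474 with the GC and length correction and ranged from -0.0488 to 0.0724. For the difference of the effects, the GC and length correction gave -0.0386 for Igfbp2, -0.167 for Igfbp6, -0.0860 for Igfbp7 and 0.0352 for Irs1, median-ratio scaling gave -0.0636 for Igfbp6, and leaving out 1 library gave -0.124 to 0.2205 for Igfbp6 and -0.231 to 0.0295 for Irs1. Over time in control, Igfbp4 went to 0.0219 with the GC and length correction and ranged from -0.188 to 0.0027, Igf1r from -0.214 to 0.142 and Igf2r from -0.0342 to 0.301. Over time in MPC EV myotubes, Irs1 went to -0.0578 with median-ratio scaling and ranged from -0.0297 to 0.107, and Igf2r from -0.213 to 0.0789.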
